A study of Mus musculus with 13 samples.

Results

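The complement genes described here are C1qa, C1qb, C1qc, C2, C3, C4b, Cfb, Cfp and C3ar1, 9 of the 55353 genes listed in droplet-based scRNA-seq of mouse liver. They were taken by name rather than by a threshold on their values, with earlier results of these data known. They were followed by cell type and diet day in 95563 cells, which are barcodes with at least 1500 unique molecular identifiers (UMIs, each marking 1 captured RNA molecule). A further 45 complement genes were used for comparison. Libraries came from male C57BL/6J mice aged 6 to 12 weeks that received control chow (D0) or chow containing the cholangitis-inducing agent 3,5-diethoxycarbonyl-1,4-dihydrocollidine, abbreviated DDC, at 0.1% for 3, 5, 9, 19 or 25 days. Each of these 6 time points has 1 library from isolation protocol A and 1 from protocol B, named below by day and protocol (D0 A). The library titled D19, protocol B, also carries a day 18 label. It is used as D19 B, as the Methods pool days 18 and 19. D3 and D5 are called onset, with 4 libraries, and D9, D19 and D25 progression, with 6. A further library (STOP, protocol B) came from mice given 18 days of DDC diet and 7 days of recovery. Protocol A sorted live singlets, leukocytes (Cd45+), Epcam+ cells, Pdpn+ cells, retinoid-autofluorescent cells and endothelial cells that were either Lyve-1+ or Cd31+ Lyve-1-. Protocol B sorted live cells of a stellate cell preparation, Cd45+ Itgax+ Cd64- cells, Epcam+ cells and Cd3e+ Lyve-1- cells, so that its Cd64- gate removed part of the macrophages. The sources do not state how many mice went into a library, so SDs and p-values measure only the spread between libraries, which may share animals.

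Complement is a cascade of plasma proteins that tags microbes and cell debris for uptake and recruits leukocytes. It starts through C1q bound to immune complexes (classical), through lectins bound to sugars, or through spontaneous turnover of C3 amplified by factor B (alternative), and all routes meet at the cleavage of C3. Hepatocytes make most plasma complement, whereas C1q is known as a product of tissue macrophages.

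Levels are given as CPM (counts per 1e6 UMIs), the UMIs of a gene over all UMIs that cell type had in the library, for types with at least 20 cells in it. Cells were named from markers, with the complement genes left out of the clustering, and each name carries "-like". Of the 95563 cells, 15871 stayed unnamed, among them 2840 of 6525 in D0 A. Total depth lay between 29307190 and 108602421 UMIs per library, median depth between 3350 and 12013 UMIs per cell, and pairs of libraries shared 1 to 49 cell barcodes. Median depth was lowest in D0 A (3350) and D0 B (3512), against 3980 to 12013 in the DDC libraries, so it differs along with DDC and D0. Each of the 6 types had its own markers, with a median summed level of 8644 CPM of 15 macrophage markers in macrophage-like cells against 441 in dendritic cell (DC)-like cells. Near-empty barcodes (at most 100 UMIs) carried free RNA with a median of 782 CPM of C1qa and 173 CPM of C3, which bears on low levels of these genes in other cells. In T/NK-like cells, used as a reference that should lack these genes, C1qa reached 6.21 to 128 CPM and C3 0 to 27.1 CPM.

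Most UMIs of the C1q genes and of C3ar1 lay in macrophage-like cells, whereas biliary, fibroblast-like and mesothelial-like cells together held most of C3, C4b and Cfb. Macrophage-like cells, 11.9% of all cells, held 80.5% of the UMIs of C1qa, 79.0% of C1qb, 81.7% of C1qc, 79.1% of C3ar1 and 57.7% of Cfp. Biliary epithelial cell (BEC)-like cells held 48.7% of C3, 41.8% of Cfb and 30.9% of C2, with 5.36% of the cells. Fibroblast-like cells, which join stellate-like and portal fibroblast-like cells, held 32.7% of C4b with 1.89% of the cells. Unnamed cells held from 6.80% (C4b) to 14.9% (Cfp) of the UMIs of a member. The cells were sorted and no gate selected hepatocytes, so these are not shares of whole liver.

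**Figure D1:**
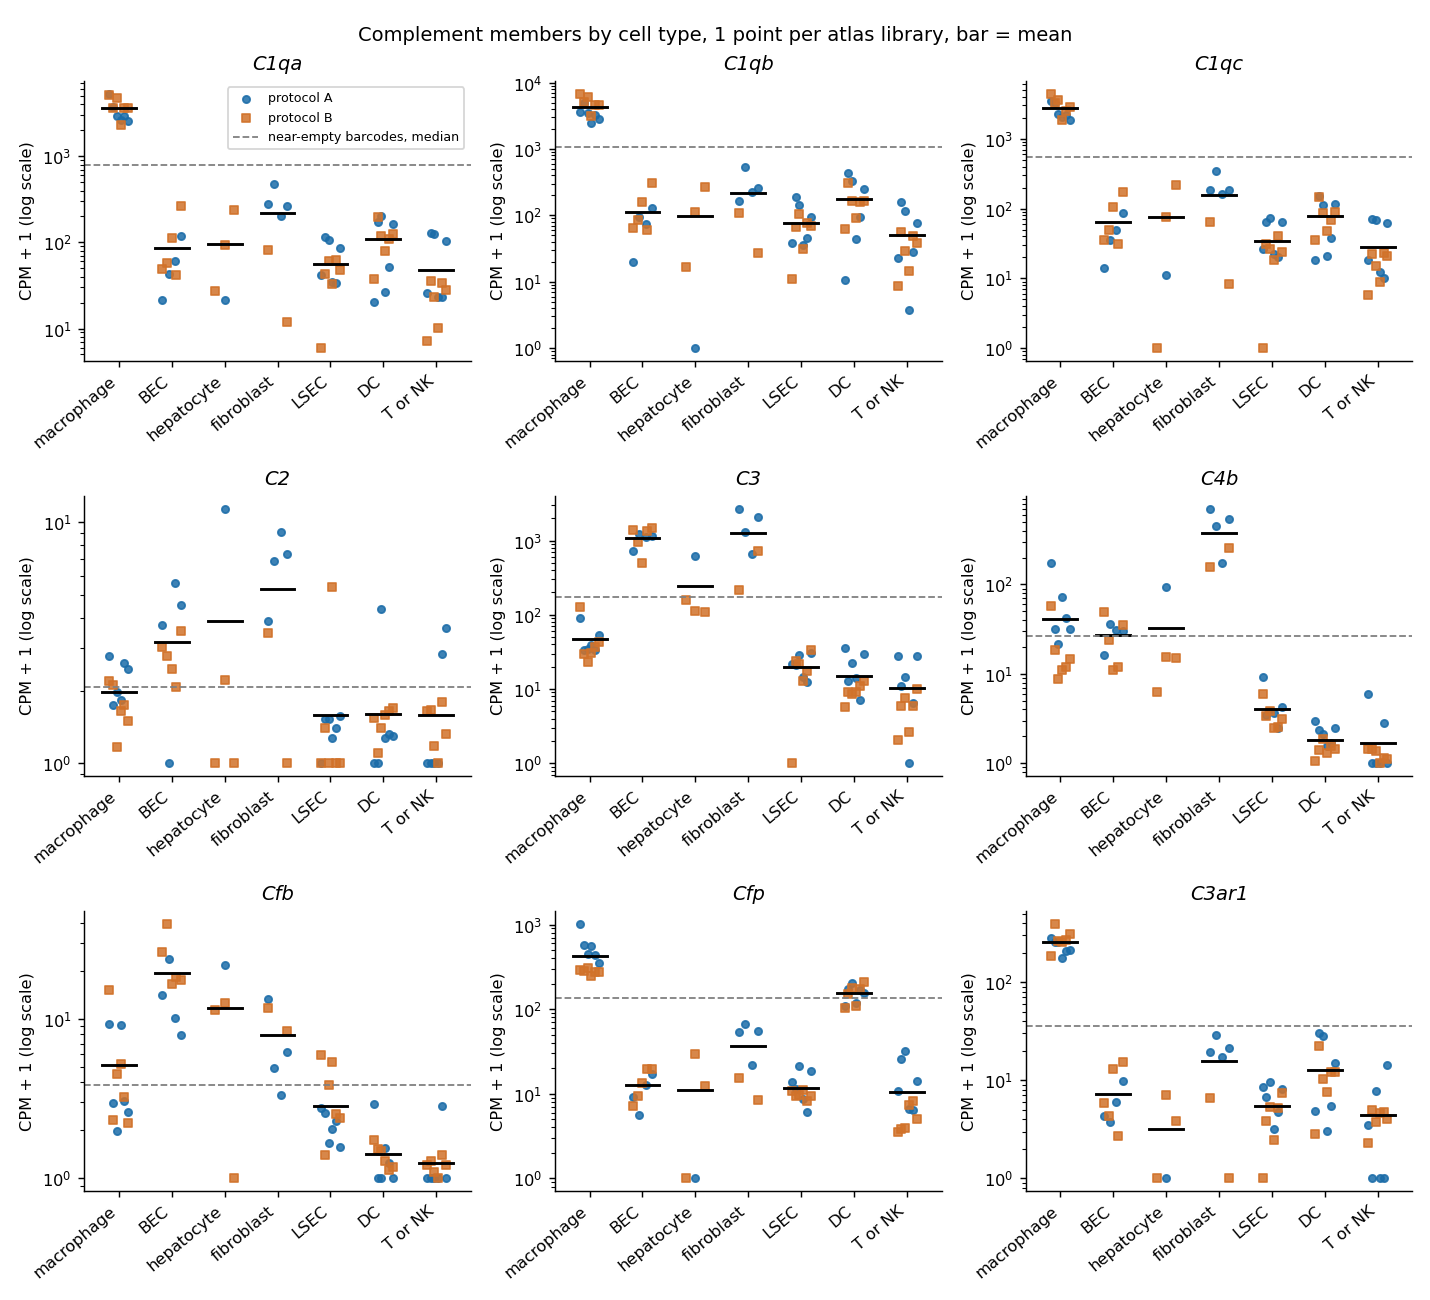
Level of each complement gene (CPM + 1, log axis) in 6 marker-named cell types and in T/NK-like cells, 1 point per atlas library, with bars at the means and a dashed line at the median of near-empty barcodes. C1qa, C1qb, C1qc and C3ar1 lie highest in macrophage-like cells in each library, C3 in fibroblast-like and BEC-like cells, C4b in fibroblast-like cells by mean, and Cfp in macrophage-like and DC-like cells.

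The genes led by macrophages have the following stretches around their transcription start (250 bases before to 50 after, from RefSeq, build GRCm38.p6, minus strand), shown because their common cell of origin is the main pattern. Entries were found for 5 of the 9 genes. Capitals mark GAGGAA on either strand (TTCCTC), letters found in sites of ETS factors such as PU.1.
C1qb, chr4:136886151-136886450: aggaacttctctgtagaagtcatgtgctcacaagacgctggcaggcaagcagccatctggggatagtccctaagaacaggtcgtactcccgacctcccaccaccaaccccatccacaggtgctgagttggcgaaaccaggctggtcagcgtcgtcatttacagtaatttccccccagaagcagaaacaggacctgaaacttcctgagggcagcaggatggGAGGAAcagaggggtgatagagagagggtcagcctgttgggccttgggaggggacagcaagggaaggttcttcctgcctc
C1qc, chr4:136892865-136893164: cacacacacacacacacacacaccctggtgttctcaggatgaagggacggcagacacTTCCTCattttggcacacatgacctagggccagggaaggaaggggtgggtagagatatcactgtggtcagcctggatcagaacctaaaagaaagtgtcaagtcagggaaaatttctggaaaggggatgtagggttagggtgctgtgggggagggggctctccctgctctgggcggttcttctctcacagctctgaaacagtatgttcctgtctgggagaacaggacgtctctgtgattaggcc
Cfp, chrX:20931506-20931805: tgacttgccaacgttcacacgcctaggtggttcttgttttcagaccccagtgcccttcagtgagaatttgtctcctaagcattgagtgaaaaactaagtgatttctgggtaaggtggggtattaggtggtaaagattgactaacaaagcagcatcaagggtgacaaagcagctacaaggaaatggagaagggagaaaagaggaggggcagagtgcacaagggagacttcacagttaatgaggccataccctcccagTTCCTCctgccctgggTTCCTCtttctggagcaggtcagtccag
C3ar1, chr6:122856108-122856407: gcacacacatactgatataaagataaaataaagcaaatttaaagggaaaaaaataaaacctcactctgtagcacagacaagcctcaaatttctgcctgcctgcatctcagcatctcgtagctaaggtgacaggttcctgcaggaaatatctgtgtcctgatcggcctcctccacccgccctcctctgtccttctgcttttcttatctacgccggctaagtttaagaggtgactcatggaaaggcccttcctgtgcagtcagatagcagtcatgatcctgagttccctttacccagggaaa
The letters occurred once in C1qb and C1qc, 2 times in Cfp and not in C3ar1 or C3, and 28.3% of 32851 promoters of this length hold them, so a match is a description only. On GRCm38, C1qa (chr4:136895917-136898803), C1qc (chr4:136889804-136893065) and C1qb (chr4:136880129-136886187) are neighbours on chromosome 4. C4b (chr17:34728380-34743882), Cfb (chr17:34856374-34862518) and C2 (chr17:34862604-34898265) lie close together on chromosome 17, and C3 (chr17:57203970-57228136) lies elsewhere on the same chromosome. The gene Gm20547 overlaps both C2 and Cfb, and 89.7% of the 31-base words in the last 400 bases of Cfb are shared with it, whereas 63.2% of those of C4b are shared with C4a. As the handling of shared reads is not given in the sources used here, the split of Cfb (2871 UMIs) from Gm20547 (1 UMI) and of C4b (18231 UMIs) from C4a (374 UMIs) is uncertain.

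C1qa, C1qb and C1qc encode the 3 chains of C1q, the recognition molecule of the classical pathway. In macrophage-like cells, C1qa measured 5309 CPM in D0 A and 5106 in D0 B, 2320 to 3639 (median 2793) in the 4 onset libraries and 2580 to 4749 (median 3643) in the 6 progression libraries. Both D0 libraries lay above all 10 DDC libraries for C1qa. For C1qb, D0 A had 3605 CPM and D0 B 6779, against 2473 to 4567 (median 3178) at onset and 2791 to 6139 (median 4763) in progression, and the groups overlapped. C1qc gave 3443 and 4404 CPM at D0, 1879 to 2530 (median 2100) at onset and 1882 to 3621 (median 3046) in progression. Across protocols C1qc overlapped between D0 and DDC, and each DDC library was below D0 of its own protocol for C1qa and C1qc. A cluster outside the Kupffer-like and LAM-like cells described below held 64 of 560 macrophage-like cells in D0 A. In D0 B it held 122 of 185, and in each DDC library at most 3. In this cluster C1qa was 4884 CPM in D0 A and 6347 in D0 B. C1qb was 5066 and 8707 CPM there, and C1qc 3164 and 5535, in the same order. The part of this cluster in the D0 levels of the C1q genes was not tested.

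None of the 3 passed the test between DDC and D0 in edgeR's quasi-likelihood fit, with log2 fold changes of -0.67 ± 0.24 (SE, adjusted p = 0.107) for C1qa, -0.37 ± 0.27 (adjusted p = 0.467) for C1qb and -0.63 ± 0.24 (adjusted p = 0.130) for C1qc. DESeq2 called C1qa (adjusted p = 0.0332). In LAM-like cells alone (lipid-associated macrophages, named from genes such as Gpnmb and Trem2), a choice made after seeing the data, the direction turned, with log2 fold changes of 0.40 for C1qa, 0.51 for C1qb and 0.34 for C1qc, none of them called. C1qb was also positive in Kupffer-like cells alone (0.22) and without D0 B (0.13), not called in either, and kept its sign in 16 of 19 alternatives.

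All 3 chains were detected in most macrophage-like cells. After thinning each cell to 1500 UMIs, C1qa was found in 86.5% ± 6.17 (SD, n = 12 libraries) of them and without thinning in 93.5%, at median depths of 4336 to 19600 UMIs. In T/NK-like cells the share was 7.23% thinned and 14.98% unthinned, at median depths of 2147 to 7217. BEC-like cells (6.36%), LSEC-like cells (liver sinusoidal endothelial cells, 7.00%) and DC-like cells (6.41%) had mean thinned shares at or below that of T/NK-like cells, whose SD over libraries was 8.17, and fibroblast-like cells had 11.97%. Unthinned, these 4 types had 22.9%, 20.5%, 19.1% and 28.2% in that order.

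In the order of mean C1qa, macrophage-like cells (3606 CPM) were followed by fibroblast-like (219), DC-like (108), hepatocyte-like (93.9), BEC-like (84.4) and LSEC-like cells (55.1). Macrophage-like exceeded fibroblast-like cells in 6 of 6 libraries, where an exact sign-flip permutation test (two-sided) cannot give less than p = 0.0312, or 0.100 after adjustment over the 45 neighbour pairs of all members. The other neighbours were not separated beyond their spread (adjusted p from 0.804 to 0.905, exact test). DC-like with hepatocyte-like and hepatocyte-like with BEC-like cells shared 4 libraries, too few to pass (smallest possible p = 0.125, exact test). Each mean covers the libraries of its type, 4 for hepatocyte-like, 6 for fibroblast-like, 9 for BEC-like and 12 for the others. C1qb and C1qc were led by macrophage-like cells as well, at 4231 and 2795 CPM. Over 55 sums of 1 type in 1 library, the genes most like C1qa in pattern were C1qc (Pearson r = 0.98), C3ar1 (0.970) and C1qb (0.960), among 8855 genes that share libraries and depth.

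Kupffer-like cells, the resident macrophages, were compared with LAM-like cells within each library. C1qb was 3234 ± 936 CPM (SD, n = 12) in Kupffer-like and 4408 ± 1026 in LAM-like cells, and was lower in Kupffer-like cells in 12 of 12 libraries. C1qa was 3302 ± 921 against 3300 ± 807 CPM, higher in Kupffer-like cells in 5 of 12.

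C1q levels in DC-like cells differed between the stages by library, although edgeR called none of the genes. C1qa was 19.5 CPM in D0 A and 36.4 in D0 B, 25.5 to 108 (median 64.4) at onset and 119 to 204 (median 167) in progression. Each progression library was above each onset library. The same held for C1qb and C1qc. The makeup of the class differed between libraries, as cDC2-like cells were 21 of 61 DC-like cells in D0 A and 828 of 2143 in D0 B, against 1707 of 2544 in D5 B and 413 of 972 in D25 B. In cDC2-like cells C1qa ranged from 32.1 to 311 CPM, and in cDC1-like cells from 10.8 to 41.0 CPM. The order of the stages did not hold in cDC1-like cells, where D9 B (11.1 CPM) and D25 B (10.8) lay below all 4 onset libraries (14.6 to 26.2). D9 A (35.6) and D25 A (41.0) lay above the onset libraries and D19 B (18.9) within their range. cDC2-like exceeded cDC1-like cells in 11 of 11 libraries for C1qa, C1qb and C1qc.

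Of 13104 genes tested in DC-like cells, 0.0153% were called between progression and onset and 3.78% between DDC and D0. In neither was any of the 7 members tested called. An unadjusted p under 0.05 (edgeR) was reached by 4 members in each, and by 804 and 2746 of all genes in that order. C2 and Cfb were too low to be tested. Between progression and onset the log2 fold change was 1.43 ± 0.33 (SE, adjusted p = 0.305) for C1qa, 1.57 ± 0.51 (0.674) for C1qb and 1.51 ± 0.30 (0.152) for C1qc, and DESeq2 called C1qa (adjusted p = 0.0153) and C1qc (0.00326). Between DDC and D0, DESeq2 called 3 members, C1qa (adjusted p = 0.00774), C1qb (0.0180) and C3ar1 (0.0481). Over all genes DESeq2 called 1007 there and 27 between progression and onset. The median over the members was 1.43 on the log2 scale for progression minus onset and 1.31 for DDC minus D0, against -0.01 over all genes in both. In cDC2-like cells alone, a choice made after seeing the data, C1qa (1.64, adjusted p = 0.0417) and C1qc (1.63, adjusted p = 0.0278) were called by edgeR. In cDC1-like cells alone, likewise chosen after seeing the data, the log2 fold changes were -0.17 for C1qa, 0.11 for C1qb and 0.19 for C1qc, none of them called. Leaving out D5 B gave 3 calls, C1qa (1.75, adjusted p = 0.0411), C1qc (1.81, 0.0217) and C3ar1 (2.05, 0.0447). The share of all genes called in that fit is not given here. Without D3 A or D25 B, C1qa was called between DDC and D0 (1.64 in both, edgeR adjusted p of 0.0395 and 0.0384). For these fits and for cDC2-like cells alone, the share of all genes called is not given here either.

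Macrophage markers moved with C1q in these cells. The summed level of 15 macrophage markers in DC-like cells was 300 CPM in both D0 libraries (13 of 15 above 0, with Folr2 and Marco at 0), 339 to 446 at onset and 401 to 876 in progression (15 of 15 in both). In cDC2-like cells alone it was 446 to 552 at D0 (12 of 15, with Folr2, Marco and Gpnmb at 0), 425 to 573 at onset and 629 to 1227 in progression, the latter without overlap. In cDC1-like cells it was 199 to 238, 184 to 287 and 187 to 400 CPM in the same order, with the same markers at 0 at D0. C1qa in T/NK-like cells of the same libraries was 9.16 to 33.1 CPM at onset and 22.4 to 128 in progression, and DC-like cells were above it in 11 of 12 libraries. In each of the 12 libraries C1qa of DC-like cells was below that of near-empty barcodes. Their part in the result was not tested.

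**Figure D2:**
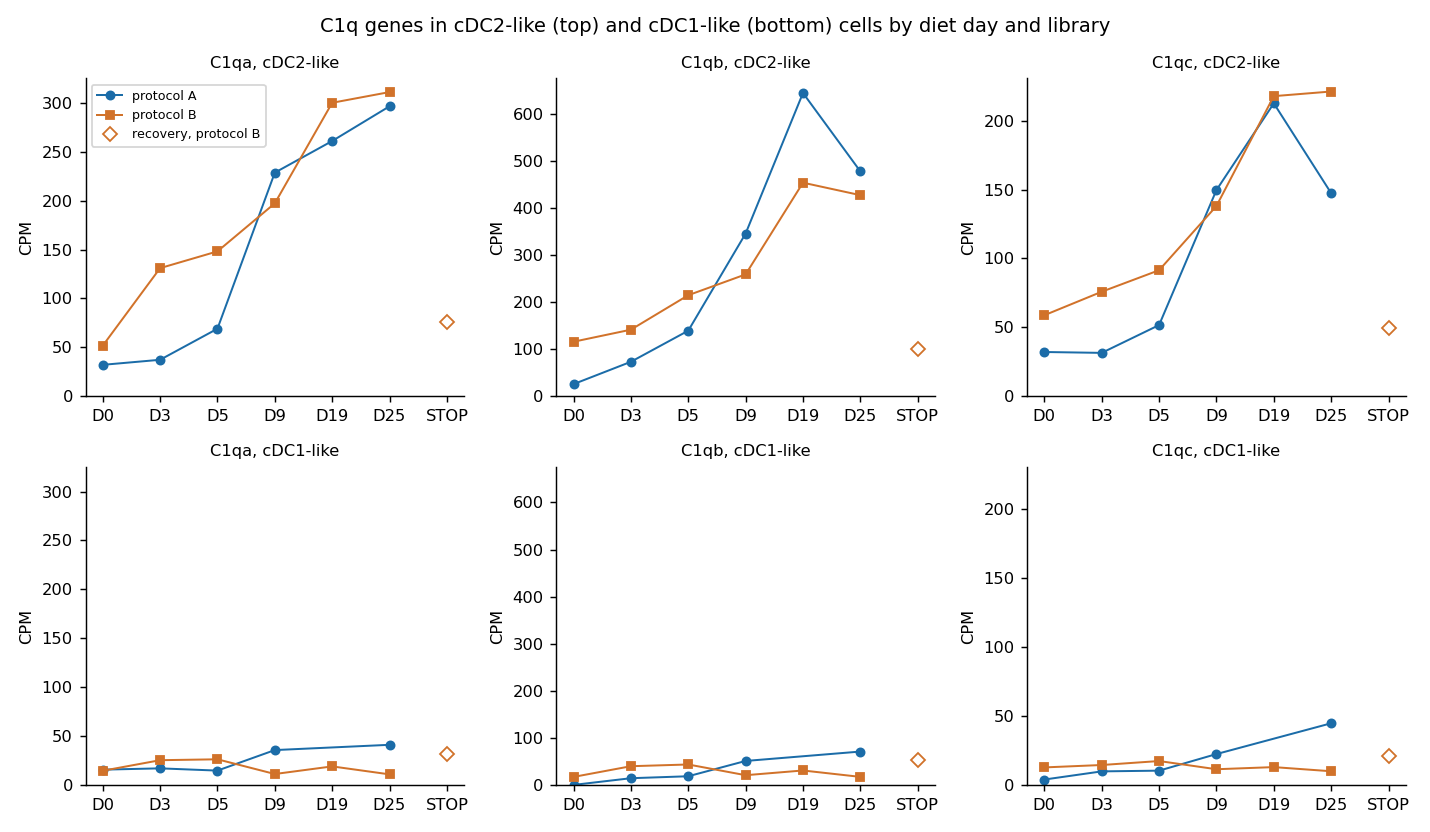
C1qa, C1qb and C1qc (CPM) by diet day in cDC2-like cells (top) and cDC1-like cells (bottom), 1 point per library, with protocols as colours and STOP as an open diamond. In cDC2-like cells each progression library lies above the onset libraries of its protocol, and cDC1-like cells stay at or below 70.8 CPM.

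In LSEC-like cells, C1qb was 38.0 and 9.83 CPM at D0, 30.7 to 75.4 at onset and 66.8 to 189 in progression, and the latter ranges overlapped. The D0 B value rests on 2 UMIs in 75 cells. Near-empty barcodes had 370 to 4547 CPM of C1qb, above LSEC-like cells in each library. The percentage of genes called was 0.0733% between DDC and D0 and 0.0641% between progression and onset (10918 tested). Of the 8 members tested, edgeR called 0 in either, with 3 and 5 at an unadjusted p under 0.05. Of all genes, 1097 and 993 reached that threshold. DESeq2 called 0 in either, and gave C4b, Cfb and C3ar1 no adjusted p in the first. C2 was too low to be tested. C1qb had log2 fold changes of 1.58 ± 0.55 (SE, adjusted p = 0.360) and 1.19 ± 0.35 (adjusted p = 0.287). Without D5 B, progression exceeded onset for C1qa (1.40, adjusted p = 0.0347), C1qb (1.76, 0.00761) and C1qc (1.53, 0.0347). The share of all genes called in that fit is not given here. Macrophage markers in LSEC-like cells summed to 290 to 486 CPM at D0 (13 of 15 above 0, with Ms4a7 and Folr2 at 0), 293 to 335 at onset and 306 to 566 in progression, and their part in the result was not tested. Nor was the part of free RNA tested.

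C2 and C4b form the C3 convertase of the classical and lectin pathways. C2 was near the detection limit, with 787 UMIs in all cells. It had a mean of 4.29 CPM in fibroblast-like, 2.89 in hepatocyte-like, 2.20 in BEC-like and 0.98 in macrophage-like cells, and at most 0.60 in DC-like and LSEC-like cells. No neighbours in this order were separated (adjusted p of at least 0.100, exact sign-flip permutation test), and C2 was called in no comparison. Fibroblast-like with hepatocyte-like cells shared 2 libraries and hepatocyte-like with BEC-like cells 4, too few to pass (smallest possible p of 0.5 and 0.125, exact test).

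Among the 6 types compared, C4b was led by fibroblast-like cells. There it measured 699 CPM in D0 A, 254 in D5 B, 540 in D9 A, 446 in D19 A, 170.5 in D25 A and 156 in D25 B. Macrophage-like cells followed with a mean of 40.3 CPM, hepatocyte-like with 31.7, BEC-like with 26.3, LSEC-like with 3.02 and DC-like cells with 0.81. Fibroblast-like exceeded macrophage-like cells in 6 of 6 libraries (adjusted p = 0.100, the smallest this pair can give in the exact test). BEC-like exceeded LSEC-like cells in 9 of 9 (adjusted p = 0.0293) and LSEC-like exceeded DC-like cells in 12 of 12 (adjusted p = 0.00732, both exact sign-flip permutation). Near-empty barcodes had a median of 25.4 CPM of C4b, close to the mean of BEC-like cells and above those of LSEC-like and DC-like cells. The part of free RNA in this order was not tested. The neighbours macrophage-like with hepatocyte-like and hepatocyte-like with BEC-like cells shared 4 libraries, too few to pass (smallest possible p = 0.125, exact test). Hepatocyte-like exceeded BEC-like cells in 1 of 4 shared libraries, although the mean over its own libraries was higher. Genes most like C4b in pattern were Ephx1 (r = 0.866), Sdc2 (0.863) and Pcolce2 (0.83).

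In macrophage-like cells, C4b and C3 were the members that changed with DDC. C4b was 173 CPM in D0 A and 56.8 in D0 B. At onset it was 72.2 in D3 A, 10.01 in D3 B, 40.8 in D5 A and 11.04 in D5 B, and in progression it ranged from 7.85 to 30.6 (median 18.95). All DDC libraries lay below D0 of their own protocol, whereas the ranges across protocols overlapped. C4b fell by 2.07 on the log2 scale (SE 0.34, adjusted p = 0.00406, edgeR). Different clusters held the class in the groups, as LAM-like cells were 57 of 560 macrophage-like cells in D0 A and 33 of 185 in D0 B, against 1353 of 2080 in D25 A and 586 of 733 in D19 B, and C4b was lower in LAM-like than in Kupffer-like cells in each library. The part of this makeup in the class-level falls of C4b and C3 was not tested, and values within Kupffer-like and LAM-like cells are given below.

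C3, the central component, measured 88.4 CPM in D0 A and 124 in D0 B macrophage-like cells. The onset libraries had 37.7, 29.4, 32.3 and 35.6 CPM (D3 A, D3 B, D5 A, D5 B) and progression 22.2 to 52.4 (median 33.1). Both D0 libraries lay above all 10 DDC libraries. C3 fell by 1.59 on the log2 scale (SE 0.27, adjusted p = 0.00313, edgeR).

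These were 2 of the 9 members tested, where 7.02% of 12376 genes were called. The median log2 fold change of the members was -0.63, against 0.04 over all genes. An unadjusted p under 0.05 (edgeR) was reached by 6 of the 9 members and by 2750 of the 12376 genes. DESeq2 called 4, adding C1qa and Cfb, and called 1257 genes in all. Cfb was also called by edgeR without D3 A (-2.31, adjusted p = 0.01002) or without D25 B (-2.01, adjusted p = 0.0491), and without a filter on low counts (-1.76, adjusted p = 0.000995), so that 4 of 19 alternatives called it. The call of C3 was lost without D0 B (log2 fold change -0.94, adjusted p = 0.0893) and in LAM-like cells alone (log2 fold change -1.94, adjusted p = 0.0731). That of C4b was lost without D0 A (log2 fold change -2.28, adjusted p = 0.0654) and without a term for protocol (-2.01, adjusted p = 0.0870). C4b kept its call in 17 of 19 alternatives, LAM-like cells alone among them. With Kupffer-like cells alone, chosen after seeing the data, both were called, C3 at -1.18 (adjusted p = 0.0202) and C4b at -2.46 (adjusted p = 0.0019), and so was Cfp at -1.07 (adjusted p = 0.0171). How many of all genes were called in these edgeR alternatives is not given here, so these calls do not single out the members.

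Of the 185 macrophage-like cells of D0 B, 122 lay in a cluster that is neither Kupffer-like nor LAM-like, against 64 of 560 in D0 A. In this cluster C4b was 32.5 CPM in D0 A and 7.18 in D0 B (4 UMIs), and C3 was 46.0 and 98.8 CPM in the same order. C3 in macrophage-like cells was below near-empty barcodes in 10 of 12 libraries, at a median of 0.256 of their level, and C4b was above them in 6 of 12. Near-empty barcodes had 270.5 CPM of C3 in D0 A and 25.9 in D0 B. The 12 hepatocyte markers summed to 803 and 117 CPM in D0 macrophage-like cells, 188 to 245 at onset and 80.2 to 338 in progression, all 12 above 0 in each group. The 13 fibroblast markers summed to 8.29 to 162 CPM at D0 and 21.6 to 34.4 at onset, with Lrat and Dpt at 0 in both. In progression they summed to 21.3 to 58.4 CPM, with all 13 above 0. The part of free RNA, of hepatocyte RNA and of fibroblast RNA in these falls was not tested.

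**Figure D3:**
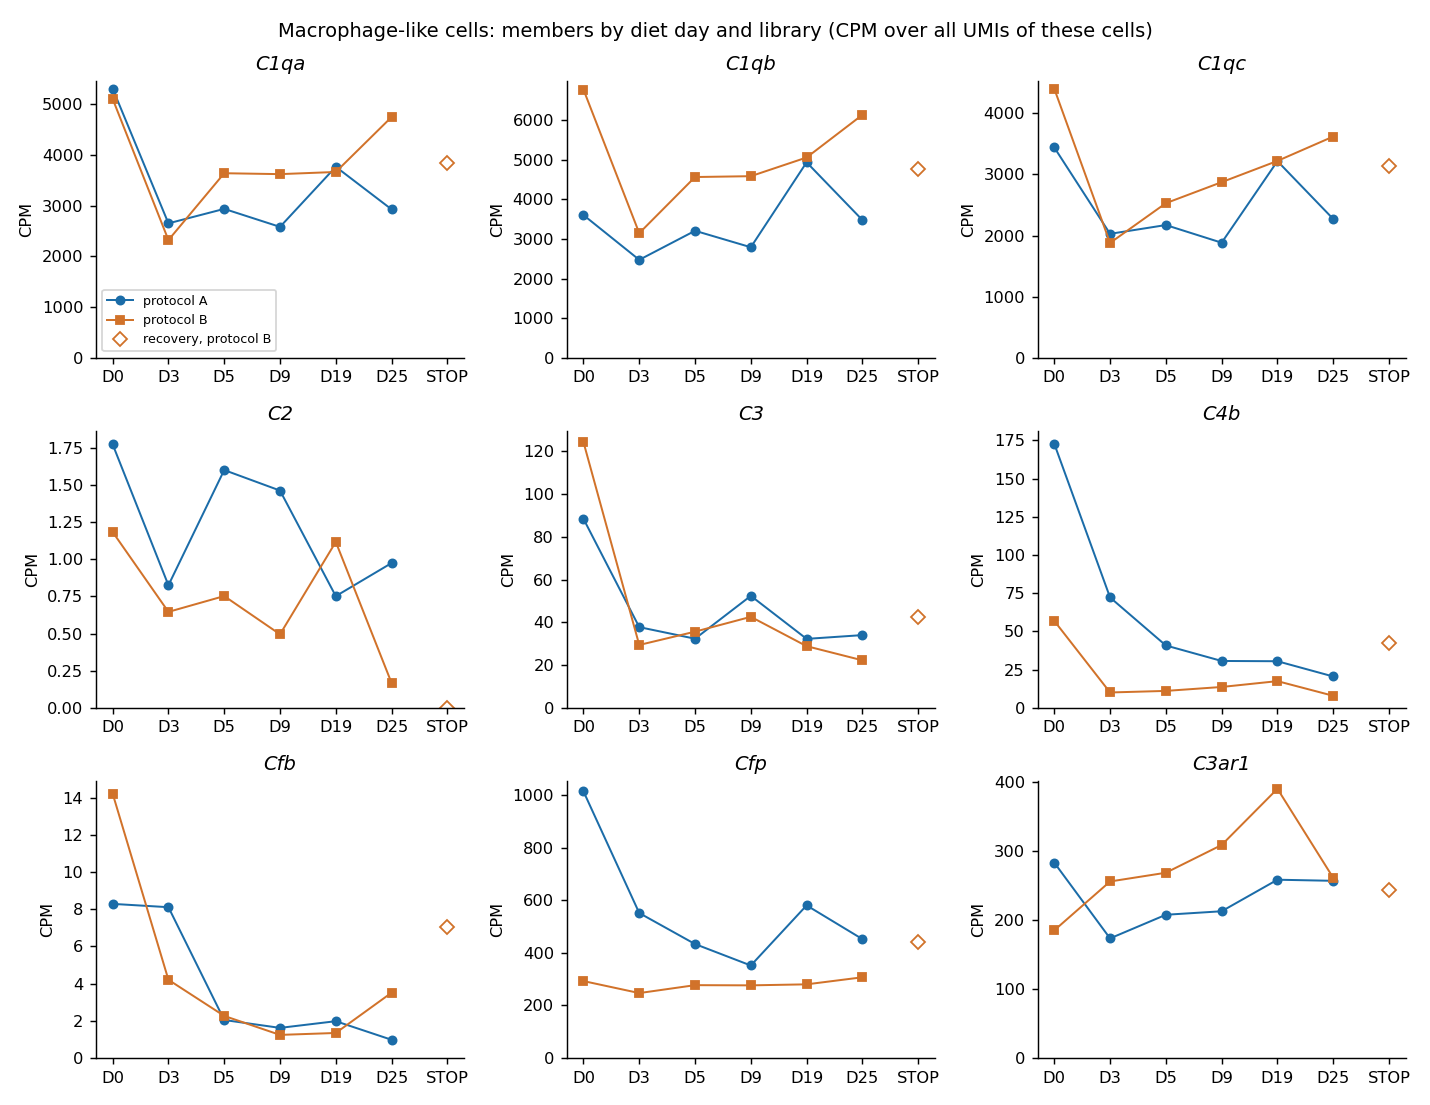
The 9 complement genes (CPM) in macrophage-like cells by diet day, 1 point per library, with protocols as colours and STOP as an open diamond. C3 and C4b are lower in each DDC library than in D0 of the same protocol, and C1qb overlaps between D0 and DDC.

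Between progression and onset, edgeR called 0 of 9 members in macrophage-like cells, where 0.388% of genes were called. Cfb (-1.34 ± 0.47 SE, adjusted p = 0.214) and C3ar1 (0.36 ± 0.16, adjusted p = 0.329) were the members with an unadjusted p under 0.05. That threshold was reached by 1719 of 12376 genes (edgeR). No member was called by DESeq2.

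Within the macrophages, C4b was 81.4 ± 98.1 CPM (SD, n = 12) in Kupffer-like cells and 13.9 ± 19.9 in LAM-like cells, and was higher in Kupffer-like cells in 12 of 12 libraries. The values of Kupffer-like cells were 203 CPM in D0 A and 350 in D0 B (30 cells), and 23.1 to 92.5 in DDC libraries.

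Among the 6 types compared, C3 had its highest means in fibroblast-like (1268 ± 934 CPM, SD, n = 6) and BEC-like cells (1092 ± 317, n = 9), which were not separated in 6 shared libraries (adjusted p = 0.901, exact sign-flip permutation). Hepatocyte-like cells followed with 247 ± 243 (n = 4), macrophage-like with 46.7, LSEC-like with 18.95 and DC-like cells with 13.8 CPM. BEC-like exceeded hepatocyte-like cells in 4 of 4 libraries, as did hepatocyte-like over macrophage-like cells (adjusted p = 0.281 in the exact test, where 4 libraries cannot give less than 0.125 before adjustment). Macrophage-like exceeded LSEC-like cells in 12 of 12 (adjusted p = 0.00732, exact). Both means lay below the median of near-empty barcodes (173 CPM), and the part of free RNA in this order was not tested. Genes most like C3 in pattern were Snhg18 (r = 0.932), Cp (0.924), which encodes ceruloplasmin, and Ank3 (0.917).

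In BEC-like cells C3 measured 723 CPM in D0 A, 504 in D3 B, 1358 in D5 B and 944 to 1451 (median 1180) in the 6 progression libraries. Each progression library was above D0 A, and onset overlapped with progression. Fibroblast markers in BEC-like cells summed to 353 CPM at D0 (12 of 13 above 0, with Lrat at 0), 619 to 1054 at onset (10 of 13, with Pdgfrb, Lrat and Dpt at 0) and 484 to 1377 in progression (12 of 13, with Lrat at 0). Hepatocyte markers summed to 6426, 2639 to 3994 and 1432 to 2149 CPM in the same order (12 of 12 in each). Large duct-like cells were 62 of 781 BEC-like cells in D0 A and 525 of 1014 in D9 A. The part of these in the levels of C3 was not tested. C3 was found in 60.2% ± 11.1 (SD, n = 9) of BEC-like cells after thinning and in 81.6% without it, at median depths of 9937 to 23700 UMIs, against 1.28% and 3.76% of T/NK-like cells. It was above near-empty barcodes in 9 of 9 libraries.

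None of the 9 members was called in BEC-like cells between DDC and D0, where 0.796% of 15197 genes were called, or between progression and onset, where 0% were. Between progression and onset 1 member had an unadjusted p under 0.05 (edgeR), as did 792 of the 15197 genes. For C3 the log2 fold changes were 0.72 ± 0.53 (SE, adjusted p = 0.485) and 0.34 ± 0.38 (adjusted p = 0.983), with D0 A as the only D0 library. DESeq2 called no member in the first, and C4b among the 9 genes it called in the second.

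C4b in BEC-like cells was 10.2 and 10.9 CPM at onset and 23.1 to 48.0 (median 32.2) in progression, and these did not overlap. The log2 fold change was 1.65 ± 0.29 (SE, adjusted p = 0.884 by edgeR and 0.0249 by DESeq2). D0 A had 15.3 CPM. Large duct-like cells were 43 of 320 BEC-like cells in D5 B and 507 of 1312 in D25 A, and C4b was higher in them than in other BEC-like cells in 6 of 8 libraries. Outside the large duct cluster C4b was 9.73 and 13.1 CPM at onset and 21.9 to 41.2 in progression, again without overlap. The part of the fibroblast markers given above was not tested.

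For C3, BEC-like cells outside the large duct cluster had 1418 ± 515 CPM (SD, n = 8) against 390.2 ± 247 in large duct-like cells, and were higher in 8 of 8 libraries. The same held in 8 of 8 libraries for Cfb, at 21.2 ± 11.3 against 8.48 ± 4.67 CPM.

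In fibroblast-like cells C3 was 2666 CPM in D0 A, 718 in D5 B, 2061 in D9 A, 1286 in D19 A, 667 in D25 A and 212 in D25 B. Portal fibroblast-like cells made up 248 of 362 cells in D0 A and 43 of 364 in D25 B, and the part of this makeup in the levels was not tested. Portal fibroblast-like cells had 2640 ± 925 CPM (SD, n = 5) and stellate-like cells 124 ± 84.7, and portal fibroblast-like cells were higher in 5 of 5 libraries. They were also higher for C4b in 5 of 5, at 602 ± 306 against 160 ± 42.7 CPM. Within portal fibroblast-like cells of protocol A, C3 was 3854 in D0, 3206 in D9, 2622 in D19 and 1956 in D25 (24 cells), and D25 B had 1562.

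In fibroblast-like cells no member was called between DDC and D0 (0.0249% of 12061 genes called) or between progression and onset (0.00829%). In the latter the log2 fold changes were 2.99 for C1qa, 2.19 for C1qb and 3.19 for C1qc. DESeq2 called no member in either, giving some low members no adjusted p. Onset is D5 B alone, with 11.1 CPM of C1qa against 81.0 to 477 in the 4 progression libraries. Macrophage markers there summed to 129 CPM in D5 B (8 of 15 above 0, with Adgre1, Cd163, Ms4a7, Fcgr1, Folr2, Timd4 and Marco at 0) and 275 to 1770 in progression (15 of 15), and their part in the result was not tested. Without D25 A the log2 fold changes were 2.99 for C1qa, 2.19 for C1qb, 3.19 for C1qc and -1.64 for C3, with D5 B as the only onset library.

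**Figure D4:**
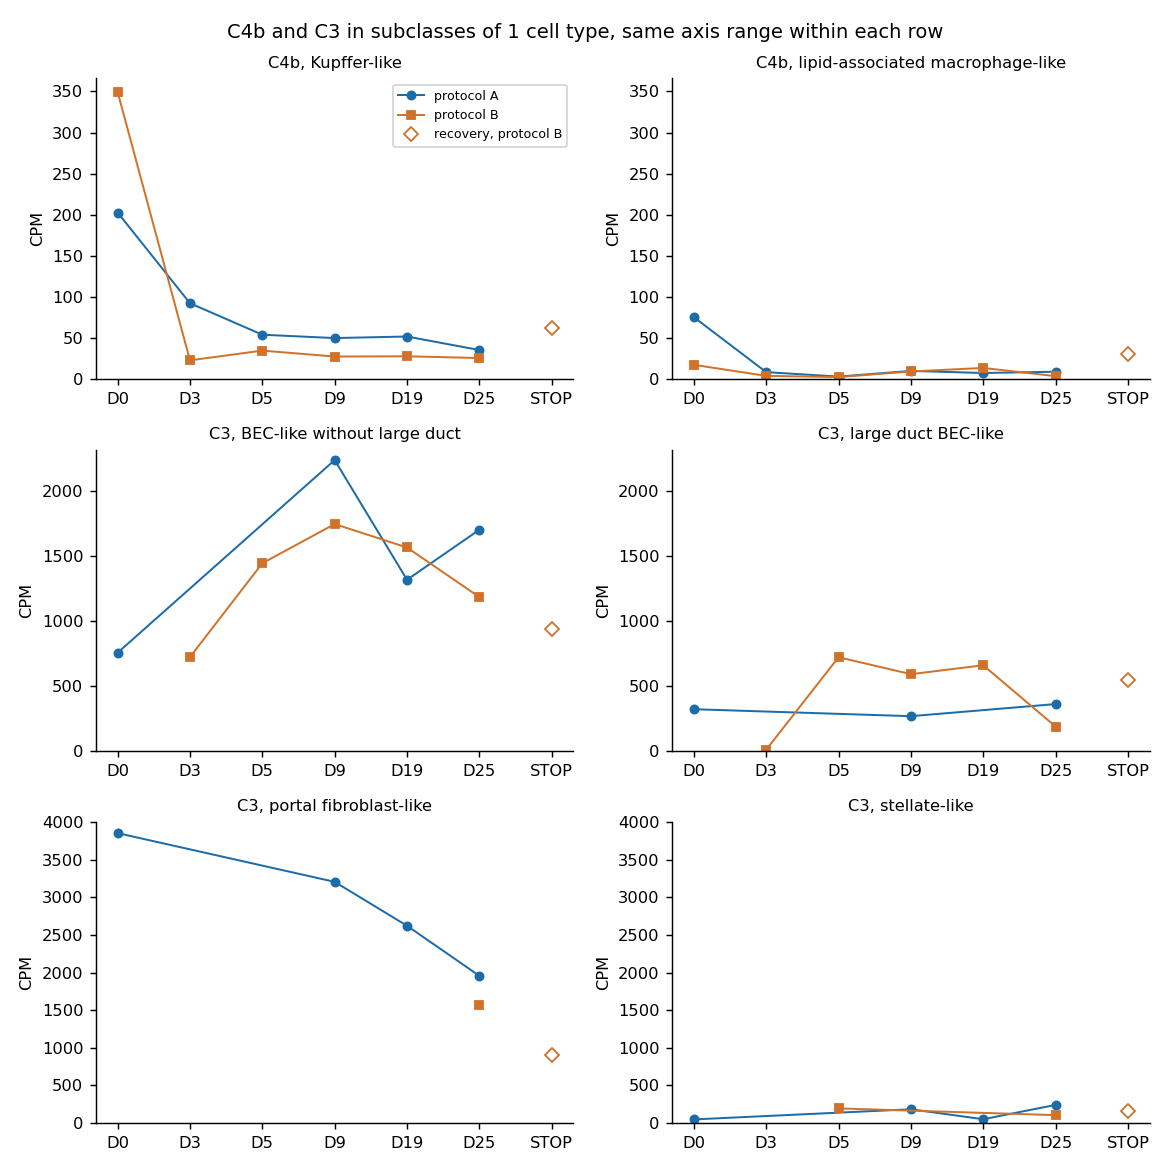
C4b in Kupffer-like against LAM-like cells, and C3 in BEC-like cells without large duct against large duct-like cells and in portal fibroblast-like against stellate-like cells (CPM), by diet day, 1 point per library and 1 axis range per row. C4b is higher in Kupffer-like cells and C3 in the BEC-like cells outside the large duct cluster and in portal fibroblast-like cells in each library that has both.

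Hepatocyte-like cells were few, 301 cells in 4 atlas libraries. C3 was 610 CPM in D0 A (26 cells), 109 in D9 B, 157 in D19 B (24 cells) and 110.2 in D25 B. C4b was 93.0, 14.0, 5.22 and 14.6 CPM in the same order, resting on 9, 5, 1 and 24 UMIs. Near-empty barcodes of these libraries had 270.5, 240, 217 and 257 CPM of C3. Hepatocyte-like cells lay below them for C3 in each of these DDC libraries and above them in D0 A. The part of free RNA in these levels was not tested. There is no onset library with 20 such cells, and no comparison of stages could be fitted.

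Factor B (Cfb) is the protease of the alternative pathway convertase, and properdin (Cfp) stabilises that convertase. Among the 6 types compared, Cfb was led by BEC-like cells (18.3 ± 9.46 CPM, SD, n = 9). Hepatocyte-like cells followed with 10.7 CPM, then fibroblast-like (6.97), macrophage-like (4.15), LSEC-like (1.86) and DC-like cells (0.42). Macrophage-like exceeded LSEC-like and LSEC-like exceeded DC-like cells in 10 of 12 libraries each (adjusted p = 0.0176 for both, exact sign-flip permutation). Near-empty barcodes had a median of 2.85 CPM of Cfb, above the means of LSEC-like and DC-like cells, and the part of free RNA in this order was not tested. Fibroblast-like exceeded macrophage-like cells in 6 of 6 (adjusted p = 0.100, the smallest this pair can give), and the 2 pairs of BEC-like with hepatocyte-like and hepatocyte-like with fibroblast-like cells shared too few libraries to pass. BEC-like cells ranged from 6.97 CPM in D9 A to 38.3 in D25 B and were above near-empty barcodes in 9 of 9 libraries. In macrophage-like cells Cfb was 8.28 and 14.2 CPM at D0 and 0.97 to 8.10 in DDC libraries, which did not overlap (log2 fold change -1.84 ± 0.60 SE, adjusted p = 0.0808 by edgeR and 0.0203 by DESeq2).

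Cfp was led by macrophage-like cells (422 ± 218 CPM, SD, n = 12), above DC-like cells (153 ± 36.3) in 12 of 12 libraries (adjusted p = 0.00732, exact sign-flip permutation). Fibroblast-like cells followed with 35.9, BEC-like with 11.7, LSEC-like with 10.6 and hepatocyte-like cells with 9.96 CPM. DC-like exceeded fibroblast-like cells in 6 of 6 libraries (adjusted p = 0.100, the smallest this pair can give in the exact test), and the later neighbours did not pass (adjusted p of at least 0.281, exact). Of these, LSEC-like with hepatocyte-like cells shared 4 libraries, too few to pass. In macrophage-like cells it was 1015 CPM in D0 A and 293 in D0 B, 247 to 552 at onset and 276 to 581 in progression, and protocol A was above protocol B on each day. The log2 fold change between DDC and D0 was -0.57 ± 0.23 (SE, adjusted p = 0.146). Kupffer-like cells had 647 ± 286 CPM (SD, n = 12) against 253 ± 63.8 in LAM-like cells, higher in 12 of 12. Among DC-like cells, cDC2-like had 254 ± 54.2 (n = 11) against 48.9 ± 12.9 in cDC1-like cells, higher in 11 of 11.

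C3ar1 encodes the receptor for C3a, a fragment that recruits and activates leukocytes. Macrophage-like cells had 255 ± 58.6 CPM (SD, n = 12), fibroblast-like 14.7, DC-like 11.8, BEC-like 6.23, LSEC-like 4.51 and hepatocyte-like cells 2.22. Macrophage-like exceeded fibroblast-like cells in 6 of 6 libraries (adjusted p = 0.100, the smallest this pair can give in the exact test), and no other neighbours were separated. LSEC-like with hepatocyte-like cells shared 4 libraries, too few to pass (smallest possible p = 0.125, exact test). Against D0 A (283 CPM) all protocol A libraries were lower (173 to 258), and against D0 B (185) all protocol B libraries were higher (256 to 389.8), with a joint log2 fold change of 0.12 ± 0.20 (SE, adjusted p = 0.775). LAM-like cells had 305 ± 75.0 CPM against 180 ± 44.4 in Kupffer-like cells, and were higher in 11 of 12 libraries. In DC-like cells C3ar1 was 1.83 to 3.89 CPM at D0, 2.04 to 11.2 at onset and 9.27 to 29.2 in progression (log2 fold change of progression minus onset 1.46 ± 0.43 SE, adjusted p = 0.545).

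**Figure D5:**
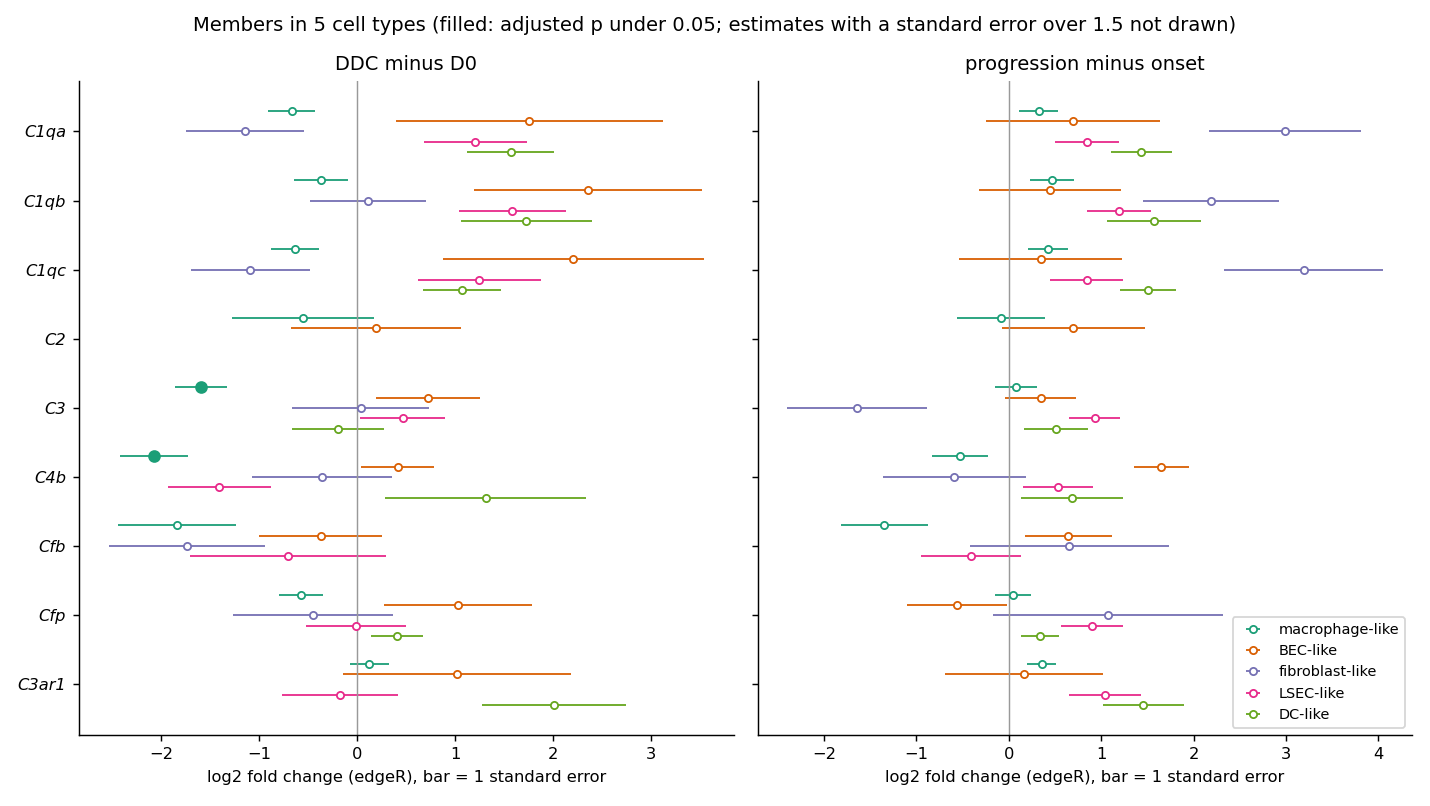
log2 fold changes (edgeR, bars 1 SE) of the complement genes in 5 cell types for DDC minus D0 and progression minus onset, with filled points where the adjusted p was under 0.05. C3 and C4b in macrophage-like cells are the filled points, both lower in DDC.

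After 7 days of recovery, STOP was set against D19 B of the same protocol, with 1 library each and no test. Intervals are exact Poisson intervals at 95% and cover counting error only. In BEC-like cells C3 was 879 CPM (855 to 903) against 1373 (1346 to 1401), C4b 21.7 (18.1 to 25.8) against 48.0 (43.0 to 53.5) and Cfb 7.33 (5.31 to 9.88) against 25.2 (21.6 to 29.2), all lower in STOP. Higher in STOP with intervals apart were C1qa, C1qb and Cfp in BEC-like cells, at 1.26, 1.40 and 2.25 times D19 B, and C1qa and C1qb in LSEC-like cells, at 2.19 and 2.60 times. In DC-like cells C1qa was 52.2 (48.9 to 55.7) against 198 (189 to 207), 0.264 of D19 B, with macrophage markers at 305 CPM against 617. Near-empty barcodes had 248 CPM of C1qa in STOP against 888 in D19 B. The part of free RNA and of macrophage RNA in the lower level of DC-like cells was not tested. The makeup of the class differed, with cDC1-like cells at 1103 of 1584 in STOP and 321 of 1014 in D19 B. In cDC2-like cells C1qa was 75.6 (66.8 to 85.2) against 300.1 (286 to 314), lower in STOP. In cDC1-like cells it was 31.9 (28.9 to 35.0) against 18.9 (14.6 to 24.2), higher in STOP, and C1qb and C1qc were likewise lower in cDC2-like and higher in cDC1-like cells with intervals apart. In macrophage-like cells C1qa was higher in STOP (3847 against 3664 CPM) and C1qb lower (4774 against 5061), both with intervals apart, and C1qc intervals overlapped (3142 against 3222). Kupffer-like cells were 89 of 247 macrophage-like cells in STOP and 147 of 733 in D19 B. C1qa was lower in STOP in Kupffer-like cells (3737 against 4032 CPM) and higher in LAM-like cells (3916 against 3537), with intervals apart in both. C1qc also went opposite ways with intervals apart, at 0.799 times D19 B in Kupffer-like and 1.05 times in LAM-like cells. Over all macrophage-like cells C3, Cfb and Cfp were higher in STOP with intervals apart, at 1.47, 5.26 and 1.58 times D19 B, but the intervals of C3 overlapped within Kupffer-like and within LAM-like cells, and those of Cfb within Kupffer-like cells. Over all macrophage-like cells C4b was 42.7 (35.2 to 51.2) against 17.4 (14.8 to 20.4) and C3ar1 244 (226 to 263) against 389.8 (377 to 403).

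Of the 45 other complement genes, 31 were tested in macrophage-like cells and 6 were called between DDC and D0, where 7.02% of all genes tested were called. Higher were Cd59a (log2 fold change 1.56), a shield against the membrane attack complex, Masp1 (1.52), a protease of the lectin pathway, and Cd93 (1.505), named as a C1q receptor. Lower were Cfhr2 (-2.24), Colec10 (-1.996), a lectin, and C6 (-1.41), of the terminal pathway. Between progression and onset 1 of 31 was called in macrophage-like cells (0.388% of all genes tested), Cd55 (-0.94), lower in progression. In LSEC-like cells 1 of 27 was called (0.0641% of all genes tested), Clu (2.30), higher in progression. In DC-like cells 3 of 28 were called between DDC and D0 (3.78% of all genes tested), all higher, Cd93 (2.79), Cd55 (1.34) and Masp1 (1.30). LSEC-like cells held more UMIs of Cd93, Cd55, Masp1 and Cd59a than any other of the 6 types, with 106971 of 207043 for Cd93 and 38659 of 81558 for Cd59a. The 8 LSEC markers (all above 0 in each group) summed to 1119 to 1389 CPM at D0, 1017 to 3548 at onset and 799 to 2512 in progression in macrophage-like cells, and to 1219 to 1391, 769 to 1938 and 653 to 1586 CPM in DC-like cells. Their part in these calls was not tested. BEC-like cells held 1445465 of 1765802 UMIs of Clu, and 12 BEC markers summed to 49.2 to 148 CPM in LSEC-like cells. BEC-like cells also held 1051 of 2141 UMIs of Cfhr2, and fibroblast-like cells 4613 of 7743 of Colec10. The part of RNA from these cells in the calls of Clu, Cfhr2 and Colec10 was not tested either. None of 37 in BEC-like and of 30 in fibroblast-like cells was called in either comparison. Of all genes, 0.796% and 0% were called in BEC-like and 0.0249% and 0.00829% in fibroblast-like cells.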

How the data were processed

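Raw UMI counts per gene and barcode were deposited by the authors, made with kallisto (a tool, with GRCm38 named as build, in the submitters' processing notes), with neither normalization nor a filter on barcodes. Versions and the handling of multi-mapped reads are not given in the sources used here. Cells were defined as barcodes reaching 1500 UMIs. The 2000 most variable genes, without the complement genes, were reduced to 40 principal components (25 neighbours) and partitioned with the Leiden method in igraph 0.11.9 at resolution 1.5, giving 63 clusters, named from 26 marker lists. Members, gene lists and markers were chosen with earlier results of these data known. Doublets were not removed in the main analysis. As an alternative, 6293 cells called by Scrublet in scanpy 1.11.5 were.

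UMIs were summed per library and type (20 cells or more) and fitted with edgeR 4.0.16 (quasi-likelihood, TMM, filterByExpr, Benjamini-Hochberg at 0.05 over all genes tested), with stage and protocol as terms. SEs are the log2 fold change over the square root of F. DESeq2 1.42.0 was an alternative. Neighbouring types were compared on log2(CPM + 1). Named genes were all members, the other complement genes that were called, at most 3 per direction and comparison, and the 3 genes most like a member.

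On simulated counts for macrophage-like cells, DDC minus D0 (12376 genes), 78% of genes changed by a log2 fold of 2 and 23% of those changed by 1 were recovered. For BEC-like cells (15197 genes) it was 33% and 1%, and for DC-like cells between progression and onset (13104 genes) 87% and 44%.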

Additional observations from a re-analysis of the deposited data

Results flagged for a closer look

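In BEC-like cells, D9 B stood apart from the other 5 progression libraries by Dixon's test for the 3 C1q genes, with 264 CPM of C1qa (others 41.9 to 118), 304 of C1qb and 173 of C1qc. In LSEC-like cells at onset, D5 B had 61.7 CPM of C1qa, apart from the other 3 libraries. These were 4 of 52 groups checked, and chance flags about 1 in 20.

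C3ar1 in macrophage-like cells moved in opposite directions in the protocols, below D0 A (283 CPM) in all 5 DDC libraries of protocol A and above D0 B (185 CPM) in all 5 of protocol B. C3 in DC-like cells did likewise, below D0 A (35.0 CPM) and above D0 B (4.81 CPM). Neither difference was tested.

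Mesothelial-like cells, which are not among the 6 types and enter no test, held 19.9% of all C3 UMIs with 0.47% of the cells. In 6 libraries they had 8782 ± 4328 CPM (SD) of C3, 898 ± 581 of C4b, 96.1 ± 104 of Cfb and 28.9 ± 9.02 of C2, each mean above those of the 6 types. Their summed markers were 2596 to 6507 CPM of 4 mesothelial markers, 4820 to 11269 of fibroblast markers (11 of 13 above 0, with Lrat and Dpt at 0) and 806 to 1956 of BEC markers (11 of 12, with Muc4 at 0), and the part of these in the levels was not tested.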

How the results depend on the processing

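Leaving out each library in turn gave 1 to 3 called members in macrophage-like cells between DDC and D0 (2 with all), 0 to 1 in DC-like cells between DDC and D0, and, between progression and onset, 0 to 3 in DC-like, 0 to 3 in LSEC-like and 0 to 4 in fibroblast-like cells. In macrophage-like cells between DDC and D0, DESeq2 gave 4 calls, no protocol term 1 and LAM-like cells alone 1. DESeq2 also gave 1 call in BEC-like cells between progression and onset, and 3 (DDC minus D0) and 2 (progression minus onset) in DC-like cells. Without a filter on low counts, progression minus onset had 1 call in macrophage-like, 1 in BEC-like, 3 in fibroblast-like, 2 in LSEC-like and 4 in DC-like cells, and DDC minus D0 had 3 in BEC-like, 3 in LSEC-like and 4 in DC-like cells. The settings of cell subsets were added after seeing the data. cDC2-like cells alone gave 2 calls between progression and onset, and counting an unnamed cluster of D0 A with LSEC markers as LSEC-like gave 1 between DDC and D0. The cause of these changes was not tested. Apart from DESeq2, the share of all genes called in each setting is not given here, so these counts do not single out the members. The order of types had 6 neighbour pairs passing with either pseudocount, 4 of 41 tested at 3000 UMIs per barcode and 9 without doublets. The order itself changed in the latter settings, where 26 and 28 of 45 neighbour pairs were those of the main order, so these counts refer in part to different pairs. The leading type of each member was the same in 4 of 4 settings. The replicate number within a day stands for the protocol, which is already a term of the fit. Few cells limit hepatocyte-like and fibroblast-like cells, and 1 D0 library limits BEC-like cells.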

Other observations

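Monocyte-like cells had 184 ± 126 CPM (SD, n = 12 libraries) of C3 and exceeded macrophage-like cells in 12 of 12. Near-empty barcodes had 183 ± 126 CPM of C3, and monocyte-like cells were above those of their own library in 5 of 12. Neutrophil-like cells had 199.7 ± 65.5 CPM of C3 and were above near-empty barcodes in 7 of 11 libraries. In monocyte-like cells C1qa was 511 ± 376 against 3606 ± 1001 in macrophage-like cells and lower in 12 of 12. In mesothelial-like cells C3 ranged from 4152 CPM in D19 A to 14735 in D19 B, and it exceeded fibroblast-like cells in 5 of 5 libraries that have both and BEC-like cells in 6 of 6.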
